A study of Mus musculus with 6 samples.

Results

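The nuclear genes of the mitochondrial respiratory chain and ATP synthase were examined in whole pancreatic islets that lack Ythdc1 in beta cells. They were taken by name, as the protein-coding rows whose symbols begin with Ndufa, Ndufb, Ndufc, Ndufs, Ndufv, Uqcr, Atp5 or one of Cox4 to Cox8, together with Cyc1, Sdha, Sdhb, Sdhc and Sdhd. The rule gave 95 rows of the 54532 in the table, for 94 symbols, since Atp5o had 2 rows. They comprised 36 complex I subunits, 8 complex I assembly factors, 4 subunits of complex II, 9 of complex III, 20 of complex IV, 17 rows for ATP synthase subunits and Atp5s, an ATP synthase coupling factor. Ndufa4 and Ndufa4l2 carry complex I names but were counted with complex IV, where the Ndufa4 protein is now placed.

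The study sequenced poly(A)-selected RNA from islets of Mus musculus aged 7 weeks. The bKO group (Ythdc1-βKO, n = 3) carries a beta-cell deletion of Ythdc1, a nuclear reader of N6-methyladenosine in RNA, and the control group (Ythdc1flox/flox, n = 3) carries the floxed alleles. The 3 libraries of each group are independent biological replicates, per the labels. The sources used here give neither the Cre driver nor the strain, and the descriptions of bKO replicates 2 and 3 name Ythdc2 and Ythdc3 where their genotype label names Ythdc1. Islets also hold alpha, delta, PP, endothelial and immune cells, which the deletion is not meant to reach.

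The respiratory chain passes electrons from NADH through complex I, or from succinate through complex II, to coenzyme Q, then through complex III and cytochrome c to complex IV, which reduces oxygen. Complexes I, III and IV pump protons across the inner mitochondrial membrane, and ATP synthase lets them return while it makes ATP. In beta cells the ATP made from glucose closes the potassium channels that set off insulin secretion. The mitochondrial genome encodes a small core of complexes I, III, IV and ATP synthase, and all other subunits come from the nucleus.

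Libraries held 17145960 to 17770058 reads in bKO and 16863329 to 18240339 reads in control. Ythdc1 stood at 3.81, 3.79 and 3.87 FPKM in bKO islets and at 5.76, 6.46 and 6.18 FPKM in control islets, so every bKO library was below every control library. FPKM counts sequenced fragments per kilobase of a gene, scaled for library size. Insulin transcripts took 15.2% to 16.2% of reads in bKO and 21.6% to 23.3% in control. The deposited FPKM are scaled by median-of-ratios size factors, and the counts of calls are therefore also given with libraries scaled by their total reads. Going from the deposited scaling to library totals moved the median log2 difference of all genes tested by 0.14, to 0.13 against -0.01.

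With deposited FPKM, 32 of the 90 members tested fell in bKO islets and 1 rose (limma on log2(FPKM + 1), Benjamini-Hochberg adjusted p under 0.05 over 15717 genes). Over all genes tested 11.4% were called lower and 8.96% higher, against 35.6% of the members called lower. The median log2 difference of the members was -0.16, with a range of -0.97 to 0.49, and 81 of 90 lay below the median of all genes. In 46 members all 3 bKO libraries lay below all 3 control libraries, where 21.6% of all genes did so, and in 1 they lay above, where 18.5% did so. Leaving out bKO replicate 1 left 16 members called lower and leaving out control replicate 1 left 17. The shares of all genes called in these fits are not given here.

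With library totals the picture of the set changed. In that scaling 6 members were lower and 4 higher, where 4.68% of all 15755 genes tested were lower and 23.5% higher. All bKO libraries lay below all control libraries in 9 members, where 8.27% of all genes did so, and above them in 11, where 38.8% did so. The members' median was 0.0051 and that of all genes 0.13. Relative to the median of all genes, the members' median was -0.15 with deposited FPKM and -0.12 with library totals, and 78 of 90 members still lay below it. The members together took 0.534% of reads in bKO and 0.539% in control. Of the 81 members with a negative log2 difference under deposited FPKM, 38 had a positive one under library totals.

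**Figure D1:**
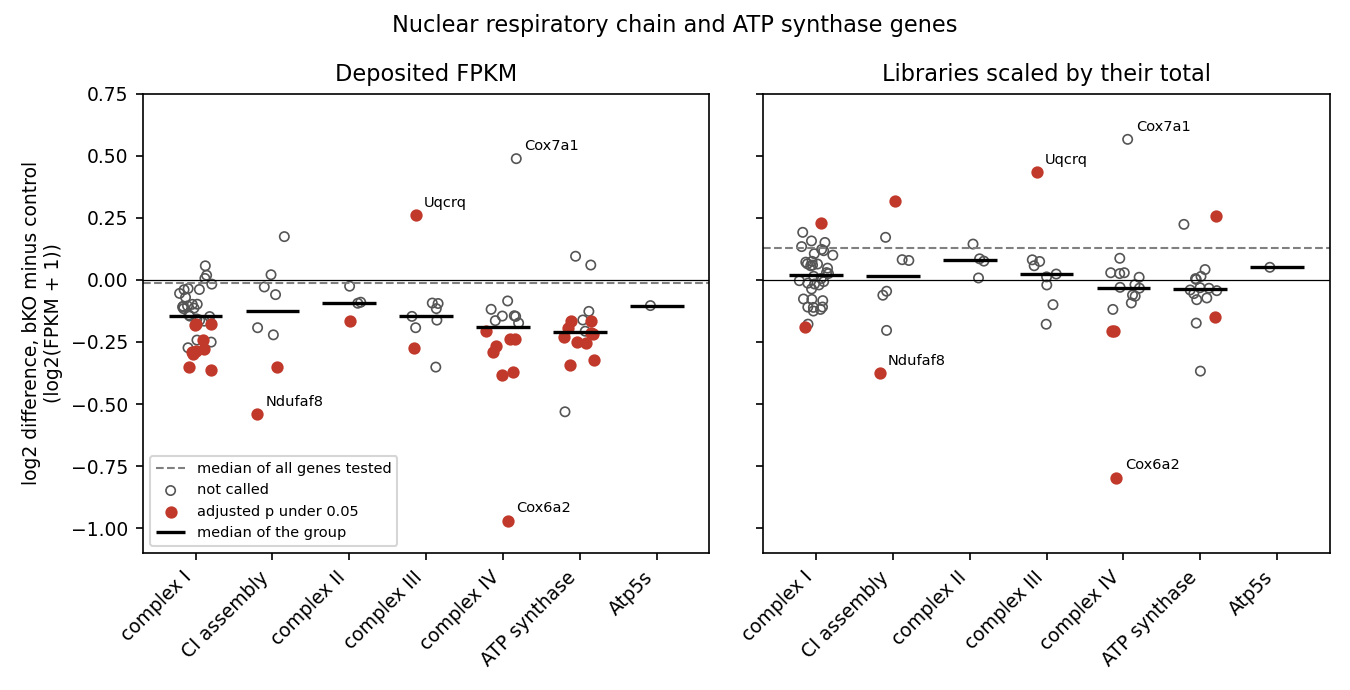
Each point is 1 member, with its log2 difference (bKO minus control, on log2(FPKM + 1)) on the vertical axis and its complex on the horizontal axis, for deposited FPKM (left panel) and for libraries scaled by their totals (right panel). Filled points passed the adjusted threshold, black bars are medians and the dashed line is the median of all genes tested: with deposited FPKM every group's bar lies below it, and with library totals the bars lie near 0 while the dashed line lies at 0.13.

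The levels of cell type markers differed between the groups. The beta cell list includes the hormone genes Ins1, Ins2 and Iapp. Gcg is in the alpha cell list, and Sst, Ppy and Pyy are in the delta and PP list. Sums over these lists thus also count hormone transcripts. Summed FPKM of the 8 beta cell markers ran from 130927 to 140038 in bKO and from 201005 to 222730 in control, with 5 called lower and 1 higher. The 9 macrophage markers summed to 117 to 144 FPKM in bKO and 201 to 221 FPKM in control, with 5 called lower. The 8 endothelial markers summed to 197 to 201 FPKM in bKO and 151 to 176 FPKM in control, with 5 called higher, and the 4 delta and PP markers to 16229 to 19274 FPKM in bKO and 9796 to 11985 FPKM in control, with 2 called higher. The 6 alpha cell markers summed to 16783 to 20080 FPKM in bKO and 18429 to 22407 FPKM in control, with 1 called higher, and of the 12 acinar markers 10 were tested and 1 was higher, at 109 to 154 FPKM summed in bKO and 55.8 to 179 FPKM in control. Of 6 mesenchymal markers 5 were tested and 1 was higher, with sums of 15.6 to 19.2 FPKM in bKO and 13.6 to 14.4 FPKM in control. With library totals 5 beta cell markers were lower and 2 higher, 4 macrophage markers lower, 7 endothelial and 4 delta and PP markers higher, and 1 each of the alpha cell, acinar and mesenchymal markers higher. No marker was at 0 in all libraries, and the part of cell composition in the members' differences was not tested. In whole islets fewer cells of a type and less RNA per cell cannot be told apart.

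Of the 90 members tested, 7 were called under both scalings. Ndufb11, Ndufaf8, Cox7a2l, Cox6a2, Cox6c and Atp5h were lower, 6.67% of the members, where 4.69% of all genes were. Uqcrq was higher, where 8.96% of all genes were. The 2 scalings differ by 1 factor per library and are not independent. All 737 genes called lower with library totals were also called lower with deposited FPKM. All 1408 called higher with deposited FPKM were also called higher with library totals. A call under both is thus no added support. The same 7 were called under each alternative that changed 1 setting at a time and kept them in the test. With library totals and 1 library left out, Ndufb11, Cox6a2 and Uqcrq were called in all 6 such fits, Ndufaf8 and Cox7a2l in 2 each, and Cox6c and Atp5h in 1 each. Of these 7, library totals with the replicate number as a block called Ndufb11, Ndufaf8 and Cox6a2 lower and Uqcrq higher, and not Cox7a2l, Cox6c or Atp5h.

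Promoter sequences were available for 74 of the 94 symbols, from RefSeq on GRCm38.p6, and cover 250 bases before to 50 bases after the start of transcription. Those of the 4 members called lower under both scalings that had an entry are shown because they let a reader see which motifs of respiratory gene promoters are present. Capitals mark matches on either strand to NRF1 (GCGCA, any base, GCGC), ETS or GABP (CCGGAAG), YY1 (AA, any base, ATGGC, any base, GC), ERR (TCAAGGTCA), the CCAAT box of NF-Y (CCAAT) and the GC box of SP1 (GGGCGG), and no motif overlaps another in these 4. Ndufb11 is read from chrX:20617570-20617869 on the minus strand, Ndufaf8 from chr11:120098684-120098983 on the plus strand, Cox7a2l from chr17:83514284-83514583 on the minus strand and Atp5h from chr11:115419870-115420169 on the minus strand.
Ndufb11: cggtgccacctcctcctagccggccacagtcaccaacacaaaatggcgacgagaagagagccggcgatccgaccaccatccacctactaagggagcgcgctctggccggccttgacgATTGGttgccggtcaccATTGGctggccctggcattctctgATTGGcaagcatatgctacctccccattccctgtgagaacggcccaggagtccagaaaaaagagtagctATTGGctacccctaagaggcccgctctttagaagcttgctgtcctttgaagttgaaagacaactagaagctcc
Ndufaf8: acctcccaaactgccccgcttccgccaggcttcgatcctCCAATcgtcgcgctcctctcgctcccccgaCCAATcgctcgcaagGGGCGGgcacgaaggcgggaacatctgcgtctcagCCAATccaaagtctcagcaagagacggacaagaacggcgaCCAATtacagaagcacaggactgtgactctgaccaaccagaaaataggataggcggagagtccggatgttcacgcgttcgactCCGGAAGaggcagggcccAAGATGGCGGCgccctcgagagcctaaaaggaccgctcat
Cox7a2l: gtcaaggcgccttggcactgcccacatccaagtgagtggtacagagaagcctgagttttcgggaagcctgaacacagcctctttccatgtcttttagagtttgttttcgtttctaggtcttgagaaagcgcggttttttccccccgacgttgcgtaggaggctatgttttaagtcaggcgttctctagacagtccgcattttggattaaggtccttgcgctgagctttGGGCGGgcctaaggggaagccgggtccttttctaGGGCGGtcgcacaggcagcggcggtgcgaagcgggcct
Atp5h: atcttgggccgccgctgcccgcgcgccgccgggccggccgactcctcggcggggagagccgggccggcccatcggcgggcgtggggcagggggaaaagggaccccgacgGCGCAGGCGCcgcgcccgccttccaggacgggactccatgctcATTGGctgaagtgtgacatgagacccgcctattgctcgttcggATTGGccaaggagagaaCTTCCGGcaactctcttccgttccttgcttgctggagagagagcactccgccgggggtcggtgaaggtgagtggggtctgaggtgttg

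These 4 promoters shared no single motif. Ndufb11 held 4 CCAAT boxes, written as ATTGG because they lie on the other strand, and none of the other 5 motifs. Ndufaf8 also held 4 CCAAT boxes, with a GC box, an ETS match and a YY1 match close to the start site. Cox7a2l held 2 GC boxes, and Atp5h an NRF1 match, an ETS match on the other strand and 2 CCAAT boxes. Over all members with a sequence, the NRF1 motif was found in 19 of 74 (25.7%), where 5.19% of 27025 genes held it, and the ETS motif in 18 (24.3%), where 9.93% of genes did. YY1 was found in 8 (10.8%, against 2.08% of genes) and ERR in 2 (2.70%, against 0.47%). The CCAAT box stood in 33 members (44.6%, against 41.1%) and the GC box in 33 (44.6%, against 38.2%). Among the 22 members with a sequence that were called lower with deposited FPKM, 15 held a CCAAT box and 5 a GC box, and among the 52 others 18 held a CCAAT box and 28 a GC box. These are counts of letters in a fixed window, with no test.

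Complex I is the entry point for electrons from NADH. Of its 36 subunits, all tested, 10 fell and none rose with deposited FPKM, with a median log2 difference of -0.15, and with library totals 1 was lower and 1 higher, with a median of 0.020. Over all genes tested 11.4% were called lower and 8.96% higher, and with library totals 4.68% lower and 23.5% higher. The 7 catalytic core subunits, which carry the flavin and the iron-sulphur clusters, had 2 lower and a median of -0.11, and the 29 accessory subunits had 8 lower and a median of -0.15.

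Ndufb11, an X-linked accessory subunit of the membrane arm (chrX:20615326-20617619, minus strand), had 78.4, 83.7 and 84.8 FPKM in bKO islets and 107, 109 and 103 FPKM in control islets. The groups did not overlap, and each was tight, at 82.3 ± 3.4 and 106 ± 3.0 FPKM (SD, n = 3 each). The log2 difference was -0.36 (SE 0.044, limma adjusted p = 0.0024), and it was -0.19 with library totals (adjusted p = 0.012). The gene shares 12.9% of its exon bases with Rbm10 on the opposite strand, and no source used here gives the strand setting of the counting.

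Ndufs1, the core subunit with the most iron-sulphur clusters, was called lower at 7.98, 8.15 and 7.97 FPKM in bKO and 9.03, 9.64 and 9.02 FPKM in control (limma adjusted p = 0.039). With library totals its groups overlapped and the log2 difference was -0.02. Its call held in 0 of the fits with 1 library left out.

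The other accessory subunits called lower with deposited FPKM were not called with library totals. Ndufs5, on the intermembrane side, had 41.7, 41.3 and 39.1 FPKM in bKO and 53.4, 56.5 and 47.1 FPKM in control, and Ndufc2, of the membrane arm, had 36.2, 42.7 and 37.0 FPKM in bKO and 47.6, 48.5 and 46.8 FPKM in control. Their log2 differences were -0.35 and -0.30, and -0.18 and -0.13 with library totals. With deposited FPKM and 1 library left out Ndufs5 kept its call in 5 fits and Ndufc2 in 2. Ndufa2, of the peripheral arm, had 65.9, 66.2 and 68.2 FPKM in bKO and 75.7, 75.1 and 76.2 FPKM in control, a log2 difference of -0.18 with little spread (limma adjusted p = 0.011), and its value with library totals was close to 0.

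Ndufb9 had 19.2, 18.6 and 18.3 FPKM in bKO and 24.7, 22.6 and 21.5 FPKM in control. Ndufb8 had 13.0, 12.5 and 12.9 FPKM in bKO and 16.0, 15.4 and 14.6 FPKM in control. Both encode membrane arm subunits, both groups were separate in each, and their log2 differences were -0.28 and -0.24. Ndufv3, an accessory subunit of the NADH-binding module, had 18.1, 18.3 and 18.4 FPKM in bKO and 21.4, 20.7 and 20.4 FPKM in control. It was called with a log2 difference of -0.18, as was Ndufb3, at 34.5, 32.5 and 40.3 FPKM in bKO and 43.4, 45.4 and 42.8 FPKM in control, with -0.29 (limma adjusted p = 0.04). With deposited FPKM and 1 library left out Ndufb3 kept its call in 1 fit, Ndufv3 in 3, and Ndufb8 and Ndufb9 in 4 each.

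Ndufa11 was called higher with library totals, as were 23.5% of all genes, whose median log2 difference was 0.13 in that scaling. It is a membrane arm subunit at the contact with complex III. Its deposited FPKM were 27.3, 31.9 and 31.8 in bKO and 31.1, 28.6 and 27.6 in control, which overlap, and scaled by totals they were 29.5, 33.8 and 33.9 in bKO and 28.9, 27.0 and 26.6 in control (log2 difference 0.23, limma adjusted p = 0.039). The 25 other complex I subunits had log2 differences that did not pass the threshold in either scaling.

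Assembly factors build complex I from its modules and do not stay in the finished enzyme. Of 8, 2 fell with deposited FPKM and the median was -0.13, and with library totals 1 was lower and 1 higher, with a median of 0.016. Of all genes 11.4% were lower and 8.96% higher with deposited FPKM, and 4.68% lower and 23.5% higher with library totals. Ndufaf8, a partner of Ndufaf5 (chr11:120098928-120100705, plus strand), had 11.1, 13.5 and 11.1 FPKM in bKO and 16.1, 19.0 and 18.1 FPKM in control, averaging 11.9 ± 1.4 FPKM in bKO and 17.7 ± 1.5 FPKM in control (SD, n = 3 each). All bKO libraries lay below all control libraries. The log2 difference was -0.54 (SE 0.092, limma adjusted p = 0.0085), and -0.38 with library totals (adjusted p = 0.025). Its partner Ndufaf5 had a log2 difference of -0.06 (limma adjusted p = 0.73).

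Ndufaf6, which acts early in assembly, had 4.26, 4.15 and 4.07 FPKM in bKO and 6.03, 5.64 and 5.10 FPKM in control, a log2 difference of -0.35 (limma adjusted p = 0.013) that was -0.20 with library totals (adjusted p = 0.052). Ndufaf1 had 4.65, 4.15 and 4.68 FPKM in bKO and 5.38, 4.99 and 5.47 FPKM in control, and did not pass (limma adjusted p = 0.081). Ndufaf4 overlapped between groups with deposited FPKM, at 4.48, 5.16 and 4.99 in bKO and 3.82, 4.57 and 4.25 in control. With library totals it was higher in bKO, at 4.85, 5.46 and 5.33 FPKM, than in control, at 3.55, 4.31 and 4.09 FPKM (log2 difference 0.32, limma adjusted p = 0.026). In that scaling 23.5% of all genes were called higher.

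Complex II, succinate dehydrogenase, is shared with the tricarboxylic acid cycle and is the complex with no mitochondrially encoded subunit. Of its 4 subunits 1 was called lower, with a median of -0.09, the smallest shift among the 5 enzymes, and the median was 0.08 with library totals, where limma called none of the 4, with 2 at an unadjusted p under 0.05. The shares of all genes were 11.4% lower and 8.96% higher, and with library totals 4.68% lower and 23.5% higher. Sdha, the flavoprotein that holds the active site, had 48.1, 46.7 and 51.1 FPKM in bKO and 54.6, 55.9 and 53.5 FPKM in control (log2 difference -0.17, SE 0.044, limma adjusted p = 0.041). Scaled by totals it had 52.0, 49.3 and 54.6 FPKM in bKO and 50.8, 52.8 and 51.4 FPKM in control, and the groups overlapped. With deposited FPKM and 1 library left out Sdha kept its call in 1 fit.

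Sdhb, the iron-sulphur subunit, had 23.3, 22.2 and 22.8 FPKM in bKO and 22.2, 24.4 and 23.1 FPKM in control, which overlap. The membrane anchor Sdhc had 22.5, 21.3 and 22.7 FPKM in bKO and 23.4, 24.6 and 23.1 FPKM in control. Sdhd, the other anchor and the complex II gene with the highest mean FPKM, had 75.0, 76.2 and 73.6 FPKM in bKO and 81.9, 78.6 and 79.1 FPKM in control. Its groups did not overlap in either scaling, but the order turned: with deposited FPKM all bKO libraries lay below control, and with library totals they lay above, at 81.1, 80.6 and 78.6 FPKM in bKO and 76.2, 74.2 and 76.0 FPKM in control. With library totals 38.8% of all genes lay above in this way, and their median of 0.13 exceeded the 0.085 of Sdhd. Relative to the median of all genes, that of complex II was -0.08 with deposited FPKM and -0.05 with library totals.

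Complex III moves electrons from coenzyme Q to cytochrome c. It had 1 gene lower and 1 higher among its 9, close to the 11.4% and 8.96% of all genes, with a median of -0.15, and with library totals 0 lower, 1 higher and a median of 0.02. In that scaling 4.68% of all genes were lower and 23.5% higher. Uqcrq, a small subunit of the complex that binds near cytochrome b (chr11:53427922-53430831, minus strand), was the member called higher. It had 42.8, 41.5 and 40.2 FPKM in bKO and 34.5, 33.8 and 35.2 FPKM in control, with every bKO library above every control library and averages of 41.5 ± 1.3 FPKM in bKO and 34.5 ± 0.68 FPKM in control (SD, n = 3 each). The log2 difference was 0.26 (SE 0.039, limma adjusted p = 0.0055), and 0.43 with library totals (adjusted p = 0.0011).

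With deposited FPKM the log2 differences of the 8 other genes of complex III were negative, and with library totals 5 of them were positive, none called. Uqcr11, another small subunit, had 59.0, 59.4 and 57.9 FPKM in bKO and 76.7, 65.5 and 72.0 FPKM in control. Its log2 difference was -0.27 (limma adjusted p = 0.02), and -0.10 with library totals. With deposited FPKM and 1 library left out it kept its call in 3 fits. Uqcrc2, a core protein that faces the matrix, had 32.5, 35.8 and 30.5 FPKM in bKO and 39.4, 36.2 and 37.7 FPKM in control (limma adjusted p = 0.079). Cyc1, the cytochrome c1 that hands electrons on, had 23.5, 26.0 and 25.3 FPKM in bKO and 28.2, 27.9 and 27.1 FPKM in control (limma adjusted p = 0.07). Both groups were separate in Uqcrc2 and Cyc1 with deposited FPKM and overlapped with library totals. Uqcrb, which helps hold the quinone site, had overlapping groups, at 40.2, 29.5 and 36.2 FPKM in bKO and 37.4, 49.8 and 48.8 FPKM in control, and did not pass (limma adjusted p = 0.13).

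Complex IV, cytochrome c oxidase, reduces oxygen and has tissue isoforms for several of its nuclear subunits. Of 20 genes 16 were tested, 8 were lower and none higher, with a median of -0.19, and with library totals 3 were lower and none higher, with a median of -0.03. Among all genes 11.4% were lower and 8.96% higher, and with library totals 4.68% lower and 23.5% higher. Cox6a2 is the isoform of subunit VIa best known from heart and skeletal muscle (chr7:128205435-128206387, minus strand). On log2(FPKM + 1) it had the largest difference of the tested members with either scaling. It had 36.3, 40.6 and 27.9 FPKM in bKO and 64.5, 64.6 and 77.6 FPKM in control, averaging 35.0 ± 6.5 FPKM in bKO and 68.9 ± 7.5 FPKM in control (SD, n = 3 each). The highest bKO library lay below the lowest control library, and the ratio of means was 0.507. The log2 difference was -0.97 (SE 0.140, limma adjusted p = 0.0049), and -0.80 with library totals (adjusted p = 0.0088). The gene shares 10.3% of its exon bases with Itgad on the opposite strand.

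The ubiquitous isoform, Cox6a1, had 144, 144 and 151 FPKM in bKO and 170, 166 and 151 FPKM in control. Its log2 difference of -0.15 did not pass (limma adjusted p = 0.095), and it was 0.03 with library totals. The share of Cox6a2 in the FPKM of both isoforms, which does not depend on library scaling, was 20.1%, 22.0% and 15.6% in bKO and 27.5%, 28.0% and 34.0% in control. It averaged 19.3% ± 3.3 in bKO and 29.8% ± 3.6 in control (SD, n = 3 each), and the groups did not overlap.

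Cox7a2l, which joins complexes III and IV in supercomplexes (chr17:83501919-83514333, minus strand), had 104, 115 and 105 FPKM in bKO and 151, 140 and 133 FPKM in control, averaging 108 ± 6.0 FPKM in bKO and 141 ± 9.4 FPKM in control (SD, n = 3 each). All bKO libraries lay below control with either scaling, and the log2 difference was -0.38 (SE 0.062, limma adjusted p = 0.0072), or -0.21 with library totals (adjusted p = 0.026). Its relatives Cox7a1 and Cox7a2 did not pass. Cox7a2 had 41.0, 43.0 and 41.5 FPKM in bKO and 48.4, 42.0 and 49.0 FPKM in control. Cox7a1, the isoform of heart and muscle, was low, at 0.779, 0.928 and 2.02 FPKM in bKO and 0.348, 0.542 and 0.807 FPKM in control, with bKO replicate 3 well above its group (limma adjusted p = 0.17). Its ratio of means was 2.20, a larger relative difference than that of Cox6a2, from 37 reads in bKO and 15 in control.

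Cox6c, a small subunit in the membrane (chr15:35925886-35938246, minus strand), had 15.3, 14.0 and 14.5 FPKM in bKO and 19.1, 19.1 and 19.3 FPKM in control, averaging 14.6 ± 0.65 FPKM in bKO and 19.2 ± 0.15 FPKM in control (SD, n = 3 each). The control libraries were almost level and every bKO library lay below them. The log2 difference was -0.37 (SE 0.044, limma adjusted p = 0.0024), and -0.20 with library totals (adjusted p = 0.024).

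**Figure D2:**
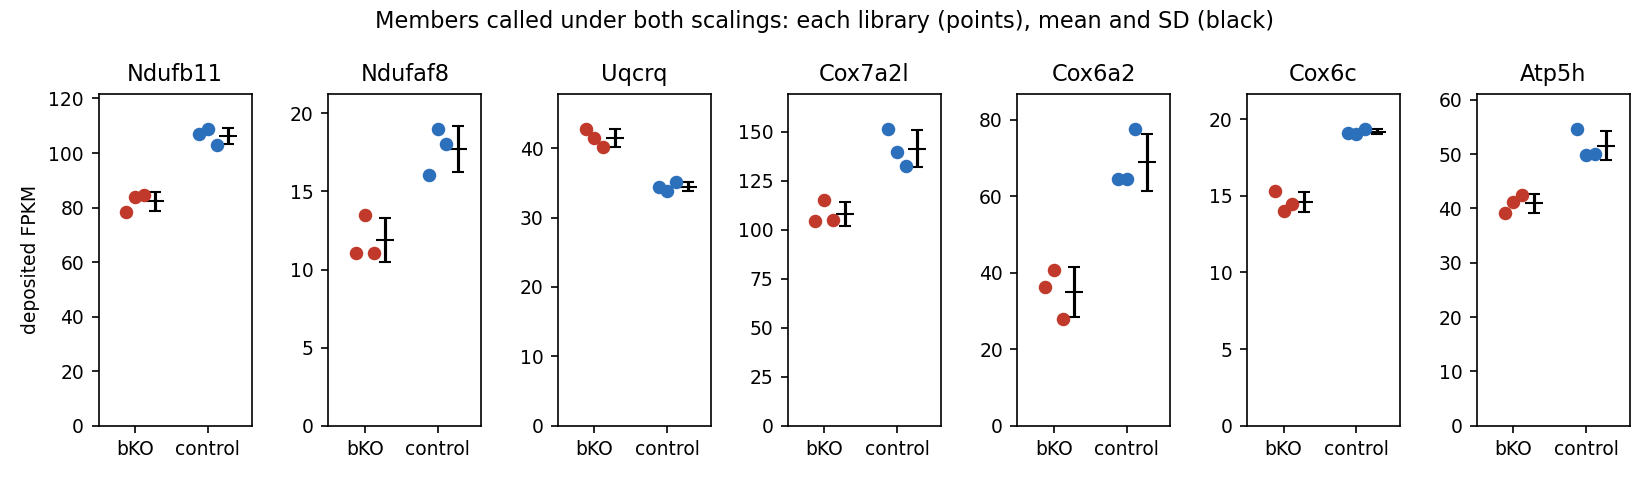
Deposited FPKM of the 7 members called under both scalings, 1 panel a gene with its own axis from 0, bKO libraries in red on the left and control libraries in blue on the right, with the mean and SD of each group (n = 3) in black. In 6 panels all bKO points lie below all control points, with the widest gap in Cox6a2, and in the panel of Uqcrq they lie above.

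The other complex IV genes called lower kept that call with deposited FPKM alone. Cox8a, the subunit VIII isoform of most tissues and the complex IV gene with the highest mean FPKM, had 210, 216 and 204 FPKM in bKO and 264, 243 and 237 FPKM in control, a log2 difference of -0.24 (SE 0.051, limma adjusted p = 0.019). Cox6b1, on the intermembrane side, had 66.0, 69.6 and 63.9 FPKM in bKO and 76.1, 78.1 and 76.0 FPKM in control. All bKO libraries lay below control in both, and with library totals both overlapped, with log2 differences of -0.06 and -0.03. With deposited FPKM and 1 library left out Cox8a kept its call in 4 fits and Cox6b1 in 5.

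Cox7c had 40.7, 45.8 and 42.8 FPKM in bKO and 52.1, 52.6 and 48.5 FPKM in control. Cox7b had 30.3, 28.4 and 32.1 FPKM in bKO and 38.3, 33.7 and 40.0 FPKM in control. These small membrane subunits had log2 differences of -0.24 and -0.29. With deposited FPKM and 1 library left out each kept its call in 2 fits. Ndufa4 had 36.8, 39.1 and 35.3 FPKM in bKO and 44.1, 44.0 and 46.1 FPKM in control, with the groups apart (log2 difference -0.27, limma adjusted p = 0.0098). Its paralogue Ndufa4l2, known as a hypoxia-responsive gene, overlapped, at 2.85, 5.14 and 5.43 FPKM in bKO and 4.03, 5.56 and 4.90 FPKM in control.

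Cox4i1, the common isoform of the regulatory subunit IV, had 67.8, 74.8 and 66.1 FPKM in bKO and 77.9, 79.2 and 76.8 FPKM in control. Its groups were separate but it did not pass (log2 difference -0.16, limma adjusted p = 0.067). Cox4i2, the isoform best known from lung, had 1.45, 1.75 and 1.65 FPKM in bKO and 2.21, 1.62 and 1.88 FPKM in control, and made up 2.27% of the pair in bKO and 2.38% in control. Cox6b2, Cox8b, Cox7b2 and Cox8c, isoforms best known from testis or muscle, were under the filter. Cox6b2 had 34 reads in bKO and 25 in control over 3 libraries each, Cox8b had 5 in bKO and 2 in control, and Cox7b2 had 1 in bKO and 0 in control. Cox8c had no read in either group, where 3 reads in a library are the limit that a count of 0 allows, for counting error only.

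ATP synthase had the largest share of genes called among the 5 enzymes with deposited FPKM, 10 of 16 lower and none higher, with a median of -0.21. With library totals 1 was lower and 1 higher, with a median of -0.04. All genes tested had 11.4% lower and 8.96% higher with deposited FPKM, and 4.68% lower and 23.5% higher with library totals. The 5 subunits of the catalytic F1 sector, which turns ADP into ATP, had 4 lower and a median of -0.23. The 11 tested genes of the membrane sector and peripheral stalk had 6 lower and a median of -0.19.

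Atp5h, subunit d of the peripheral stalk (chr11:115415689-115419962, minus strand), had 39.2, 41.1 and 42.5 FPKM in bKO and 54.6, 49.9 and 50.05 FPKM in control, averaging 40.9 ± 1.7 FPKM in bKO and 51.5 ± 2.7 FPKM in control (SD, n = 3 each). The groups did not overlap with either scaling, and the log2 difference was -0.32 (SE 0.051, limma adjusted p = 0.0066), or -0.15 with library totals (adjusted p = 0.042).

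In the F1 sector, Atp5a1 is the alpha subunit and the ATP synthase gene with the highest mean FPKM. It had 126, 133 and 134 FPKM in bKO and 159, 162 and 147 FPKM in control (log2 difference -0.25, SE 0.049, limma adjusted p = 0.014). Atp5b, the catalytic beta subunit, had 102, 104 and 108 FPKM in bKO and 121, 120 and 111 FPKM in control, and missed the threshold (log2 difference -0.16, limma adjusted p = 0.053). All 5 genes of the F1 sector had every bKO library below every control library, where 21.6% of all genes did so. Atp5c1, the gamma subunit of the rotor, had 50.1, 52.1 and 52.8 FPKM in bKO and 63.1, 62.6 and 56.8 FPKM in control. Atp5d, the delta subunit, had 41.4, 42.7 and 39.0 FPKM in bKO and 48.2, 50.4 and 45.1 FPKM in control, and Atp5e, the epsilon subunit, had 47.5, 48.0 and 46.3 FPKM in bKO and 57.9, 59.1 and 52.9 FPKM in control. Their log2 differences were -0.23, -0.22 and -0.25, and with library totals all 5 overlapped. With deposited FPKM and 1 library left out Atp5d kept its call in 1 fit, Atp5c1 in 2, Atp5a1 in 4 and Atp5e in 6.

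The ring of the rotor is built of subunit c, a single mature protein made from 3 genes. Atp5g3 fell, at 41.9, 41.5 and 40.5 FPKM in bKO and 48.1, 49.4 and 46.7 FPKM in control (log2 difference -0.21, limma adjusted p = 0.0091). Atp5g2 had 39.2, 40.7 and 36.1 FPKM in bKO and 49.6, 40.3 and 44.8 FPKM in control, and did not pass (log2 difference -0.21, limma adjusted p = 0.12). Atp5g1 had 12.3, 11.6 and 11.5 FPKM in bKO and 10.6, 10.5 and 11.8 FPKM in control (log2 difference 0.09, limma adjusted p = 0.3). It was called higher with library totals, as were 23.5% of all genes (log2 difference 0.26, limma adjusted p = 0.028). As a share of the FPKM of the 3 genes, free of library scaling, Atp5g1 made up 13.1%, 12.4% and 13.1% in bKO and 9.81%, 10.5% and 11.5% in control, with no overlap.

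Of the stalk and membrane genes, Atp5f1, subunit b, had 26.5, 27.0 and 26.5 FPKM in bKO and 29.0, 30.8 and 30.4 FPKM in control. Atp5mpl, a small proteolipid, had 14.0, 16.0 and 14.4 FPKM in bKO and 18.6, 21.0 and 17.6 FPKM in control. Atp5l, subunit g, had 11.1, 10.7 and 10.2 FPKM in bKO and 12.6, 12.1 and 12.3 FPKM in control. These 3 were called lower, with log2 differences of -0.17, -0.34 and -0.19 and no overlap between groups, as was Atp5j2, subunit f, with -0.17. With library totals none of them was called. With 1 library left out of the deposited FPKM, Atp5mpl kept its call in 3 fits, Atp5f1 and Atp5l in 1 each and Atp5j2 in 0. Atp5k, subunit e, had 9.55, 9.85 and 11.6 FPKM in bKO and 16.1, 19.1 and 11.6 FPKM in control, and did not pass (limma adjusted p = 0.066). Atp5o, the subunit that links stalk and head, had 12.5, 13.3 and 11.8 FPKM in bKO and 11.97, 13.2 and 10.8 FPKM in control, which overlap; its other row lies wholly within another gene's exons and had no read. Atp5s, the coupling factor, had 6.84, 5.93 and 6.74 FPKM in bKO and 6.21, 7.91 and 7.11 FPKM in control, and did not pass.

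Summed over the genes of a complex, FPKM lay lower in bKO in each of the 5 enzymes and in the assembly factors, with no overlap between groups. Complex IV had 838, 875 and 833 FPKM in bKO and 1056, 1010 and 1003 FPKM in control, a log2 ratio of means of -0.27. Complex I had 986, 992 and 1004 FPKM in bKO and 1145, 1130 and 1113 FPKM in control, with -0.18, and ATP synthase 607, 627 and 620 FPKM in bKO and 739, 739 and 686 FPKM in control, with -0.22. Complex III averaged 364 ± 16 FPKM in bKO and 402 ± 9.7 FPKM in control (-0.14), complex II 168 ± 2.0 FPKM in bKO and 181 ± 2.5 FPKM in control (-0.11), and the assembly factors 44.8 ± 3.4 FPKM in bKO and 53.8 ± 1.7 FPKM in control (-0.26; SD, n = 3 each). With library totals the log2 ratios were -0.09 for complex IV, -0.01 for complex I, -0.05 for ATP synthase, 0.03 for complex III, 0.07 for complex II and -0.09 for the assembly factors. Complex IV stayed without overlap in that scaling, at 906, 925 and 889 FPKM in bKO and 982, 954 and 964 FPKM in control. Within its means of 907 and 967 FPKM, Cox6a2 held 37.3 FPKM in bKO and 65.2 in control, and Cox7a2l 115 and 134. Of its 16 tested genes 10 had a negative log2 difference with library totals and 6 a positive one. Complex II stood in the reverse order, at 183, 176 and 182 FPKM in bKO and 169, 173 and 172 FPKM in control. In that scaling the median log2 difference of all genes was 0.13. These sums carry no test.

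**Figure D3:**
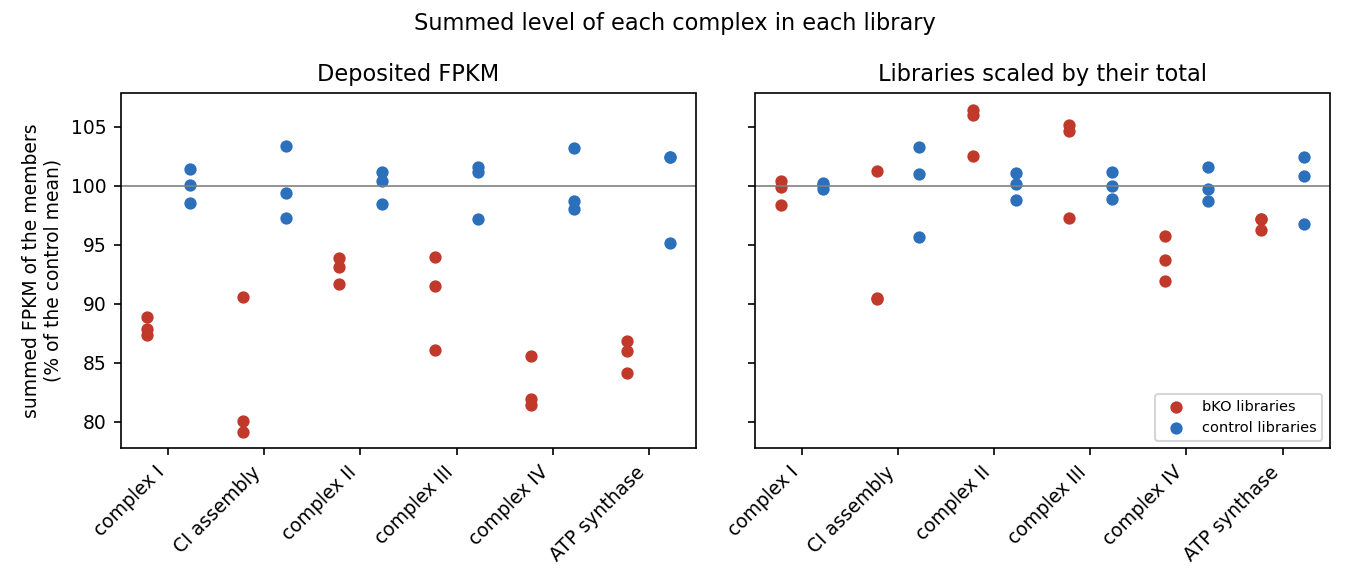
Summed FPKM of each complex in each library, as a percentage of the control mean, for deposited FPKM (left panel) and library totals (right panel), with bKO libraries in red left of control libraries in blue. With deposited FPKM all bKO points lie below the control points of their complex, and with library totals this holds for complex IV, while the points of complex II lie above.

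The members varied little within a group, with a median coefficient of variation of 5.82% in bKO and 6.06% in control. In control they had a median of 27.0 FPKM (0.566 to 248), where all genes tested had 4.50, and a median gene length of 1688 bases (419 to 8086), where all genes had 3567. The length in the table joins all annotated exons of a gene, so a gene with a long rare isoform shows a low FPKM. Across the 90 members the Spearman rho of log2 difference with gene length was 0.28, and -0.034 over all genes, and with mean FPKM it was -0.33, and -0.25 over all genes. These points share 6 libraries and are given as a description. Of the 95 rows, 13 share over 10% of their exon bases with another gene.

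Genes around the respiratory chain were read the same way, beside 11.4% lower and 8.96% higher of all genes with deposited FPKM, and 4.68% lower and 23.5% higher with library totals. The 13 protein-coding genes of the mitochondrial genome, which supply the core subunits, had 1 higher and none lower, with a median of 0.17, and with library totals 5 higher and a median of 0.34. mt-Nd2, a complex I core subunit, had 1934, 2075 and 2060 FPKM in bKO and 1543, 1138 and 1659 FPKM in control (log2 difference 0.50, limma adjusted p = 0.043). Summed, the mitochondrial genome gave 18980, 20022 and 19557 FPKM in bKO and 18111, 15314 and 18917 FPKM in control. The lowest bKO sum lay just above the highest control sum, and control replicate 2 was the lowest. Of the 13 genes 10 had a positive log2 difference and 3 a negative one. Mean levels ran from 1.31 FPKM in bKO and 0.998 in control for mt-Atp8 to 5018 and 5542 for mt-Co1 (log2 difference -0.14). The reason for this wide range was not tested.

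Of 17 genes of the tricarboxylic acid cycle and pyruvate dehydrogenase, which feed the chain, 5 fell, with a median of -0.09, and with library totals 1 was lower and 2 higher, with a median of 0.07. Fh1, fumarase, which takes the product of complex II, had 23.8, 23.4 and 23.4 FPKM in bKO and 37.2, 31.7 and 35.6 FPKM in control (log2 difference -0.54, limma adjusted p = 0.002), and was lower with library totals too (-0.37). Of 14 genes for coenzyme Q synthesis and cytochrome c, 2 fell, the kinase-like Coq8a and Coq8b, with a median of -0.09. With library totals neither was called (limma adjusted p = 0.14 and 0.40), and 0 were lower and 3 higher, with a median of 0.03. Of 46 tested assembly factors other than those of the Ndufaf series 7 fell and 2 rose, with a median of -0.05, and with library totals 1 was lower and 6 higher, with a median of 0.09. Among them Uqcc2, an assembly factor of complex III, averaged 70.4 ± 4.6 FPKM in bKO and 90.0 ± 3.3 FPKM in control (SD, n = 3 each; limma adjusted p = 0.0068, and 0.046 with library totals).

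Of 19 tested regulators of mitochondrial biogenesis none fell and 1 rose, with a median of 0.08, and with library totals 0 were lower and 6 higher, with a median of 0.22. Esrrg, an orphan nuclear receptor that acts on respiratory genes, had 2.76, 3.05 and 2.69 FPKM in bKO and 1.99, 1.95 and 1.84 FPKM in control (log2 difference 0.39, limma adjusted p = 0.011), and the difference was 0.51 with library totals (adjusted p = 0.0033). Gabpa, the DNA-binding subunit of the ETS factor GABP, had 6.56, 6.21 and 6.79 FPKM in bKO and 7.59, 7.34 and 7.26 FPKM in control and did not pass in either scaling (limma adjusted p = 0.073, and 0.96 with library totals). The 77 tested mitochondrial ribosomal protein genes had 6 lower and 1 higher, with a median of -0.06, and with library totals 1 lower and 12 higher, with a median of 0.09. The 80 tested cytosolic ribosomal protein genes had 58 lower and none higher, with a median of -0.24, which is further from 0 than the members' -0.16, and with library totals 15 were lower and 1 higher, with a median of -0.07.

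**Figure D4:**
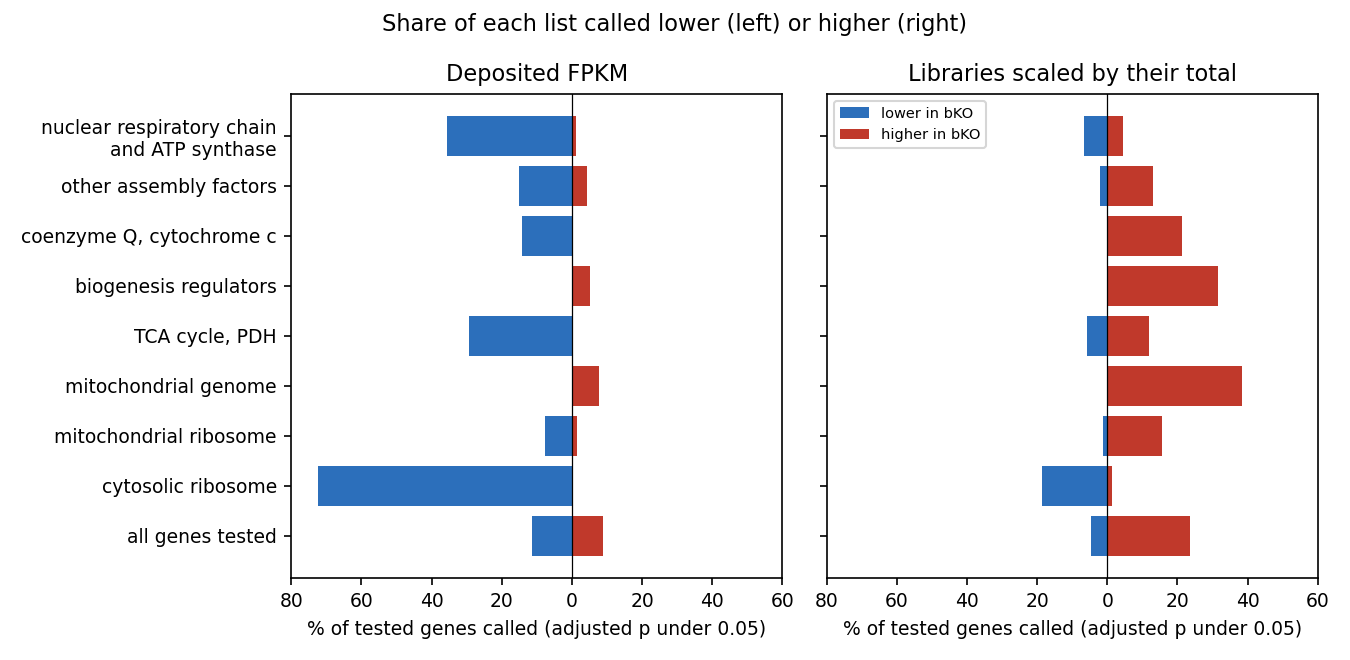
Bars give the percentage of tested genes of each list called lower (blue, to the left) or higher (red, to the right) in bKO, for deposited FPKM (left panel) and library totals (right panel). With deposited FPKM the lower bar of the members, 35.6%, is longer than that of all genes, 11.4%, and shorter than that of the cytosolic ribosomal proteins, 72.5%.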

How the data were processed

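Poly(A) RNA of whole islets was sequenced as paired ends in 3 bKO and 3 control libraries. Per the labels' protocols, HISAT2 2.0.5 aligned the reads to GRCm38 and featureCounts 1.5.0-p3 counted them over genes. DESeq2 1.20.0 and CASAVA also stand in the submitters' processing notes, without a stated role. No source used here gives the strand setting or annotation release.

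The authors deposited FPKM per gene. Multiplied by gene length and 1 factor per library, every value gave a whole read within 0.01 (100% of values), and the factors equal median-of-ratios size factors. The library totals above are these recovered reads. Since the unit is FPKM, the fit was limma 3.58.1 (R 4.3.3) on log2(FPKM + 1) with a mean-variance trend and bKO against control, for genes that reached 0.5 FPKM in 3 libraries or more. P-values are two-sided and Benjamini-Hochberg adjusted over all genes tested, with a threshold of 0.05. Fold changes of low genes are understated on this scale. The same fit was run on values scaled by library totals. Alternatives were other pseudocounts, filters and normalizations, limma-voom on recovered reads, a replicate block and each library left out. The fit was tested on simulated data.

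Members, gene lists, motifs and the rule for named genes were chosen with earlier results of these data known. Values in every library are given for members called with deposited FPKM (up to 30 by smallest adjusted p), the 4 with the smallest adjusted p and the one with the highest mean FPKM in each complex, and isoform families. The values of 1 member under this rule are not reported here. Ndufa11, Ndufb3, Atp5b, Atp5k, Atp5o, Atp5j2, Uqcrb and Ndufaf5 were named outside that rule, after their values were seen. Exon overlaps were read from the GENCODE vM21 annotation of GRCm38, in which 89 of 95 rows had the same position.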

Additional observations from a re-analysis of the deposited data

How the results depend on the processing

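The count of members called lower was 32 with deposited FPKM, 6 with library totals and 13 with quantile normalization, and leaving out 1 library gave 16 to 28. The count called higher was 4 with library totals and 1 under each other setting that changed 1 choice. Library totals with 1 library also left out gave 3 to 6 lower and 1 to 4 higher, and with the replicate block 3 lower and 5 higher. The median log2 difference was -0.16 with deposited FPKM, 0.0051 with library totals, -0.11 with totals that leave out the islet hormone genes, -0.088 with quantile normalization and -0.18 to -0.16 with 1 library left out. Log2 ratios of summed FPKM with library totals, and with totals without hormone genes, were -0.0065 and -0.13 for complex I, 0.070 and -0.049 for complex II, 0.033 and -0.086 for complex III, -0.092 and -0.21 for complex IV, and -0.046 and -0.17 for ATP synthase, and -0.089 with library totals for the assembly factors. With library totals 38 of the 81 negative log2 differences turned positive, among them Sdhd (0.085), Sdha (0.0075), Sdhb (0.14), Sdhc (0.075), Cyc1 (0.023), Cox6a1 (0.029), Cox4i1 (0.010), Cox7a2 (0.029), Ndufa4l2 (0.025), Atp5f1 (0.0048) and Atp5s (0.050). The sign also turned with quantile normalization in Sdhd (0.066) and Sdhb (0.044), in Sdhb with totals without hormone genes (0.030) and without control replicate 2 (0.0084), and in Ndufa4l2 without bKO replicate 1 (0.12). With 1 library left out Sdhb ran from -0.056 to 0.0084 and Ndufa4l2 from -0.25 to 0.12. Library totals replace 1 factor per library for all genes alike, which moved the median log2 difference of all genes tested by 0.14. The cause of the changes under the other settings was not tested. Lower counts under the other settings were 23 with totals without hormone genes, 24 with no filter, 33 with a minimum of 1 FPKM, 32 with either other pseudocount, 37 with limma-voom, and 28 without members that share exon bases with another gene, an alternative chosen after seeing the data. With every single library left out in turn, 13 members kept their call. Of all genes 11.4% were called lower with deposited FPKM and 4.68% with library totals. The shares of all genes under the other settings are not given here. A change in the members' counts there cannot be told from a change over all genes.

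The replicate numbers do not pair the samples: deviations of same-numbered libraries correlated at -0.052, -0.014 and -0.073. A fit with the replicate block called 24 members lower and 1 higher, and the share of all genes called in it is not given here.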

Other observations

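Of the rows that carry the same kind of name but are not protein-coding, 12 were processed pseudogenes and 1 was the long non-coding Ndufb1-ps. The pseudogenes held 181 reads in bKO and 177 reads in control, while the members held 279101 reads in bKO and 282586 reads in control, and 4 of the 13 rows had no read. The 5 that passed the filter had limma adjusted p-values of 0.13 to 0.93. Ndufb1-ps had 9.39, 9.33 and 8.63 FPKM in bKO and 13.6, 10.2 and 10.2 FPKM in control, with no overlap between groups (log2 difference -0.27, limma adjusted p = 0.13), and control replicate 1 stood above the other control libraries. Ndufab1-ps, the pseudogene with the most reads, had 4.12, 3.65 and 4.85 FPKM in bKO and 3.85, 4.59 and 4.62 FPKM in control, which overlap.

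Isoform shares that do not depend on library scaling overlapped between groups for Ndufa4l2 within the Ndufa4 pair, at 7.20%, 11.6% and 13.3% in bKO and 8.37%, 11.2% and 9.61% in control. The share of Cox7a1 in the pair with Cox7a2 was 1.86%, 2.11% and 4.64% in bKO and 0.715%, 1.27% and 1.62% in control, where every bKO library lay above every control library at a level of few reads.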
